A study of Mus musculus with 2 samples.

Results

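The Ifitm-high non-cycling CD8 T cells were 662 of the 14973 donor-sorted cells that passed the cell filters, and 662 of the 11406 cells that met the CD8 T cell criteria. Droplets with 500 to 7500 detected genes and at most 15% mitochondrial unique molecular identifiers (UMIs, each a tag for 1 captured RNA molecule) were kept. A CD8 T cell held at least 3 UMIs summed over the CD3 chains (Cd3g, Cd3d, Cd3e) and the receptor constant genes (Trbc1, Trbc2, Trac), at least 2 of Cd8a and Cd8b1, and none of Cd4 or Foxp3. From these, cells with fewer than 3 UMIs of the cell cycle genes Mki67, Top2a, Cdk1 and Pclaf and with under 20 UMIs of the chemokines Ccl1, Ccl3, Ccl4 and Xcl1 per 10000 were taken as non-cycling and chemokine-low. Those with at least 5 UMIs of Ifitm1, Ifitm2 and Ifitm3 together formed the Ifitm-high set, and the other 3589 served as the comparison cells. The choice therefore rests on measured Ifitm counts, and the Ifitm levels given here describe the selection.

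The cells came from C57BL/6 splenic T cells, called naive in the labels but not in the study's account of the single-cell experiment, given with T cell-depleted bone marrow to lethally irradiated BALB/c mice, a major histocompatibility complex-mismatched model of acute graft-versus-host disease after allogeneic hematopoietic cell transplantation (allo-HCT). T cells of donor type, positive for CD45, H2kb and TCRβ and without H2kd, were sorted from pooled spleens on days +7 and +14 after allo-HCT and run as 1 droplet library per day, and both library names carry the term PBS. The label text on sorting gives day +7 for both libraries, and the day was taken from the sample titles. All cells shared the donor strain, the irradiated host and the sort, and no syngeneic, untransplanted or drug-treated library was analysed here. Mice were pooled and each day had 1 library, so day, library and mouse batch cannot be told apart, no test across samples was possible, and every interval in square brackets is a 95% interval for counting error only.

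Ifitm1, Ifitm2 and Ifitm3 encode small interferon-induced transmembrane proteins that sit in the plasma and endosomal membranes and restrict the entry of enveloped viruses. Their transcription is raised by type I and type II interferons, and in lymphocytes some members are also carried without infection, on memory and tissue-resident T cells among others. CD8 T cells activated by host antigen in graft-versus-host disease divide, acquire granzymes and perforin, and then differ in how far they keep naive and memory genes, gain killer lectin receptors or take up the Tox-linked program of repeated stimulation.

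The 3 genes lie together on mouse chromosome 7, and the promoter sequences are shown because the family is known as interferon targets and the rule sums 3 genes whose start regions need not be alike. Each line gives 130 bases, from 100 before to 30 after the annotated start, on the gene's own strand in RefSeq's annotation of GRCm38.p6. Ifitm1 is at chr7:140967976-140968105 on the plus strand, Ifitm2 at chr7:140955932-140956061 on the minus strand, and Ifitm3 at chr7:141010715-141010844 on the minus strand. Capitals mark the core of the interferon-stimulated response element (ISRE), spelled GAAA, then any 2 bases, then GAAA, and searched on both strands.
Ifitm1: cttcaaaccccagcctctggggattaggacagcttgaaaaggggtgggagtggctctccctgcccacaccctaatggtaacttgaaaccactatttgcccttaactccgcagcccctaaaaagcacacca
Ifitm2: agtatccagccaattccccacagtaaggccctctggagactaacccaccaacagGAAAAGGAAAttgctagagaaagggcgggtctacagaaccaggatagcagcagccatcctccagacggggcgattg
Ifitm3: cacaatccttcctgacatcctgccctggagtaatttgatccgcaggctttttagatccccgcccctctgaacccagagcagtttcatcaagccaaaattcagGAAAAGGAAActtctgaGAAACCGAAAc
Over the whole 300-base window, from 250 before to 50 after the start, the ISRE core had 1 match for Ifitm2, from -46 to -37, and 2 for Ifitm3, from 3 to 12 and from 20 to 29. The gamma-activated site letters TTCNNNGAA had 1 match for Ifitm3, from 14 to 22, overlapping the second ISRE match. These letters had no match in the Ifitm1 window. Of 32851 promoter windows of the same length, 3.44% held the ISRE core and 8.30% the gamma-activated site letters. A match is a description of letters and not of factor binding.

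The day +7 library held 7355 barcodes and 87124828 UMIs, and the day +14 library 8043 barcodes and 84233811 UMIs. Ifitm-high cells had a median of 6961.5 UMIs on day +7 (comparison cells 6485) and 5382 on day +14 (comparison cells 5381). The 2 libraries shared 20 barcodes, 1 of which was that of an Ifitm-high cell in 1 library only. Their 634 day +7 cells summed to 4856356 UMIs and their 28 day +14 cells to 170168, so that 3 counts, the upper limit a count of 0 allows, corresponded to 0.618 and 17.6 CPM (counts scaled to 1e6 UMIs). The T cell identity came from the rule itself. Among markers the rule did not use, gamma-delta T cell genes summed to 17 UMIs in the day +7 cells and to 0 on day +14. Of the 9 genes of the natural killer (NK) list, Klra4 and Klra8 were at 0 on both days. The 8 of them used for list sums came to 255 CPM in Ifitm-high and 188 CPM in comparison cells on day +7. On day +14 they came to 582 and 116 CPM. Fcer1g, a gene of this list, was at 201 and 129 CPM on day +7. At least 2 UMIs of myeloid or erythroid genes (Lyz2, S100a8, S100a9, C1qa, C1qb, hemoglobins and Car1) were carried by 35 of 634 Ifitm-high and 69 of 1625 comparison cells on day +7, and by 3 of 28 and 155 of 1964 on day +14. The part of these UMIs in the results was not tested, and comparisons are also given without these cells.

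Ifitm1 gave most of the Ifitm UMIs in the selected cells on both days. On day +7 its summed level was 2645 CPM [2600, 2692] in the Ifitm-high cells against 18.5 CPM [16.1, 21.3] in the comparison cells, that of Ifitm2 was 814 CPM [788, 839] against 35.4 CPM, and that of Ifitm3 was 478 CPM [459, 498] against 25.2 CPM. A single Ifitm-high cell held between 5 and 175 Ifitm UMIs, with a median of 17. Per cell, Ifitm1 ran from 0 to 152 UMIs (median 9.5), Ifitm2 from 0 to 42 (median 5) and Ifitm3 from 0 to 30 (median 2), so the spread among the selected cells was widest for Ifitm1. On day +14 the Ifitm-high cells held 3620 CPM [3340, 3917] of Ifitm1, 306 CPM [228, 401] of Ifitm2 and 235 CPM [168, 320] of Ifitm3, with 15.5 Ifitm UMIs in the median cell and 89 in the highest. Ifitm1 thus took 67.2% of the Ifitm UMIs on day +7 and 87.0% on day +14. The members of the family are close paralogs, and how reads that fit more than 1 of them were assigned is not given in the sources used here, so the split among them is uncertain to that extent.

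The 3 transcripts did not always occur in the same cell. On day +7 all 3 were detected in 263 of 634 Ifitm-high cells (41.5%), Ifitm1 with Ifitm2 alone in 128, and Ifitm2 with Ifitm3 but no Ifitm1 in 113 (17.8%). Ifitm1 had a UMI in 485 cells (76.5%), Ifitm2 in 534 (84.2%) and Ifitm3 in 426 (67.2%). In erythroid-type droplets of the same library, which are not T cells and had a median of 32520 UMIs, Ifitm1 was present in 7 of 85 (8.24%). Ifitm2 (80.0%) and Ifitm3 (96.5%) were common there and give no background level. The shallower comparison cells had Ifitm1 in 140 of 1625 (8.62%). The rule keeps these cells under 5 Ifitm UMIs, so the nearness of the 2 Ifitm1 shares does not set a background level either. At the threshold, 60 day +7 cells with 4 Ifitm UMIs were just outside and 58 with 5 just inside, with median depths of 6685 and 7127.5 UMIs. On day +14, 2 cells had 4 and 3 cells had 5. All but 2 of the 28 day +14 cells carried Ifitm1, and those 2 were the droplets with 1910 and 41 myeloid or erythroid UMIs.

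**Figure D1:**
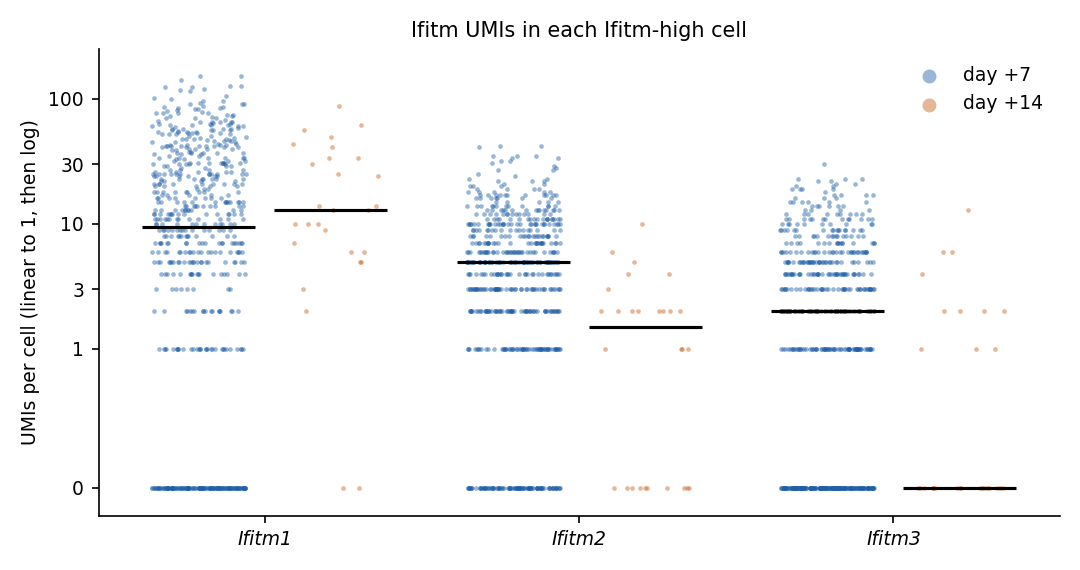
Ifitm1, Ifitm2 and Ifitm3 UMIs in each Ifitm-high cell on days +7 (634 cells) and +14 (28 cells), with each point a cell and each line the median. Ifitm1 reaches 152 UMIs and has the highest medians (9.5 and 13), and Ifitm3 has the lowest (2 and 0).

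Ifitm-high cells made up 11.3% [10.4, 12.1] of CD8 T cells on day +7 (634 of 5629) and 0.485% [0.322, 0.700] on day +14 (28 of 5777). Within the non-cycling chemokine-low class they were 28.1% [26.2, 29.97] and 1.41% [0.936, 2.03]. Because a cut on UMIs depends on depth, cells were thinned at random to 4000 UMIs. Cells below that depth were dropped, 198 on day +7 (12 of them Ifitm-high) and 969 on day +14 (5 Ifitm-high). All limits of the rule were applied again to the thinned counts, so cells could change class. On day +7 the non-cycling chemokine-low class then held 2547 cells against 2259 before thinning, and the cycling CD8 class 2070 against 3272. The shares of CD8 T cells were then 11.6% [10.7, 12.5] and 0.484% [0.310, 0.720], so the drop between the libraries was of the same size at equal depth. Below the limit of the rule the days differed too: 51.2% of non-cycling chemokine-low CD8 cells had no Ifitm UMI on day +7 and 94.5% had none on day +14.

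High Ifitm counts were also found in cells that the rule left out, and were rarer on day +14 in each class. Thinned to 4000 UMIs, at least 5 Ifitm UMIs were present in 20.5% [13.8, 28.5] of chemokine-high CD8 cells on day +7 and in 1.497% [0.488, 3.46] on day +14. In cycling CD8 cells the shares were 16.9% [15.3, 18.5] and 0.194% [0.0630, 0.452]. In non-cycling chemokine-low CD8 cells they were 21.6% [19.97, 23.2] and 1.17% [0.753, 1.74]. Cells with Cd4 and no Cd8 UMIs had the highest of these shares on both days, 38.2% [32.7, 43.9] and 2.12% [0.973, 3.98], and the day +14 intervals of the CD4 and the non-cycling CD8 cells overlapped. Without thinning the corresponding shares were 25.5% and 1.64% in chemokine-high cells, 35.5% and 0.862% in cycling cells, and 45.9% and 4.50% in Cd4 cells.

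**Figure D2:**
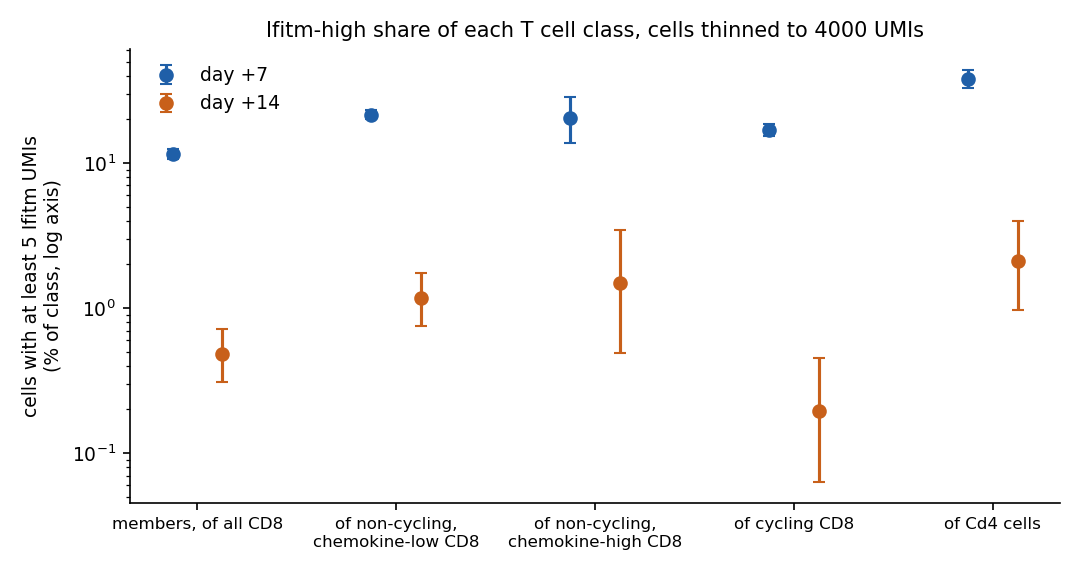
Share of cells with at least 5 Ifitm UMIs after thinning to 4000 UMIs, by cell class and day, on a log axis with 95% counting intervals. On day +7 the Ifitm-high cells are 11.6% of all CD8 T cells, and the shares of the other classes lie between 16.9% and 38.2%. On day +14 every share is at or under 2.12%.

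On day +7 the Ifitm-high cells carried more of several effector and cytokine receptor transcripts and less of Dapl1, Tcf7, Eomes and Tox. Among 6490 genes at 10 CPM or more in either set, with the rule genes left out, 22 were at least 2-fold higher (0.339%) and 6 at least 2-fold lower (0.0924%), on the log2(CPM + 1) scale. Intervals of ratios are computed without the added 1. Without the cells holding myeloid or erythroid UMIs (599 against 1556 cells), 13 of 6463 genes were higher (0.201%) and 7 lower (0.108%), with 12 and 6 genes in common with the counts over all cells. The 10 higher genes lost in that setting were Apoe, Vcam1, Selenop, C1qa, C1qb, C1qc, Cd74, Ccl24, Hmox1 and Ccl6, all transcripts of macrophages or other antigen-presenting cells, and Fgl2 was added. C1qa and C1qb are themselves genes of that filter, so their loss follows in part from the choice of cells. Gstm5, Rasl11a and the unnamed models Gm15518 and Gm36723 stayed among the higher genes.

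The granzyme genes Gzmc and Gzmm were higher in the Ifitm-high cells. Gzmc, a granzyme of strongly activated cytotoxic cells, was at 22.9 CPM [18.8, 27.5] in Ifitm-high cells and 1.99 CPM [1.25, 3.01] in the others (log2 2.996 [2.85, 4.25]), and its UMIs lay in 42 of 634 (6.62%) Ifitm-high and 21 of 1625 (1.29%) comparison cells, with 33 of 111 UMIs in 1 cell. Gzmm, a granzyme typical of innate-like lymphocytes, was at 71.7 CPM [64.3, 79.6] in Ifitm-high cells and 29.3 CPM [26.2, 32.7] in the others (log2 1.26 [1.07, 1.51]), and was seen in 159 of 634 (25.1%) against 195 of 1625 (12%) cells. In erythroid-type droplets with their median of 32520 UMIs both were found in 0 of 85, which by the limit of 3 counts allows a share of up to 3.53%. Gzma itself stood at 5139 CPM [5076, 5203] in Ifitm-high cells and 4453 CPM [4413, 4492] in the others (log2 0.21 [0.18, 0.23]) and Gzmb differed by log2 0.032 [-0.016, 0.079], both abundant in either set. Prf1, which encodes perforin, differed by log2 -0.11 [-0.23, 0.0085]. Over the 25 cytotoxic effector genes measured, 2 were at least 2-fold higher, none lower, and the median was 0.12 against 0.00025 over all genes. In sum the list was lower, at 17746 CPM in Ifitm-high and 18875 CPM in comparison cells (log2 -0.089 [-0.100, -0.078]).

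AA467197, which encodes a small mitochondrial protein related to Ndufa4, was found in most Ifitm-high cells. Its level was 315 CPM [299, 331] in Ifitm-high cells and 126 CPM [119, 133] in the others (log2 1.32 [1.22, 1.43]), with a UMI in 485 of 634 (76.5%) Ifitm-high and 688 of 1625 (42.3%) comparison cells, and in 3 of 85 (3.53%) of the deeper erythroid-type droplets. Anxa1, a phospholipid-binding annexin, was at 78.7 CPM [70.97, 86.96] in Ifitm-high cells and 31.9 CPM [28.7, 35.4] in the others (log2 1.27 [1.09, 1.51]), in 191 of 634 (30.1%) against 209 of 1625 (12.9%) cells and 1 of 85 erythroid-type droplets (1.18%). It was the only called gene of 19 S100 and annexin genes measured, of which 16 lay above 0, with a median of 0.12. Cbfa2t3, a transcriptional corepressor, was at 26.2 CPM [21.8, 31.1] in Ifitm-high cells and 8.41 CPM [6.79, 10.3] in the others (log2 1.53 [1.24, 2.04]).

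Receptors for cytokines and alarmins were represented by Il2ra and Il1rl1. Il2ra, the high-affinity interleukin-2 receptor chain, was at 38.9 CPM [33.6, 44.9] in Ifitm-high cells and 17.5 CPM [15.1, 20.1] in the others (log2 1.11 [0.86, 1.45]). Il1rl1, the receptor for interleukin-33, was at 21.6 CPM [17.7, 26.2] in Ifitm-high cells and 8.95 CPM [7.28, 10.9] in the others (log2 1.18 [0.86, 1.68]), and Socs2, a suppressor of cytokine signalling, at 11.7 CPM [8.89, 15.2] in Ifitm-high cells and 4.25 CPM [3.12, 5.65] in the others (log2 1.28 [0.88, 2.05]). Il7r, which sustains memory cells, was at 150.3 CPM [139.6, 162] in Ifitm-high cells and 93.7 CPM [88.1, 99.6] in the others, short of 2-fold (log2 0.68 [0.54, 0.82]). Of 18 cytokine receptor genes measured 1 was called higher and none lower (median 0.18), and of 13 costimulatory receptors none was called (median 0.18), with Tnfrsf4, which encodes OX40, at log2 0.90 [0.61, 1.26].

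Several genes shared with NK cells were higher by less than 2-fold. Of 4 genes of the NK list measured, 3 were above 0, none was at least 2-fold higher and 1 was at least 2-fold lower. Of 8 lectin receptors measured, 7 were above 0 and none was called, with a median of 0.42. Klrc1, which encodes the inhibitory receptor NKG2A, was at 256 CPM [242, 271] in Ifitm-high cells and 173 CPM [165, 181] in the others (log2 0.57 [0.46, 0.67]), and Klrk1, which encodes NKG2D, differed by log2 0.41 [0.30, 0.52]. Fcer1g, the signalling chain of Fc and NK receptors, differed by log2 0.64 [0.53, 0.76], Itga1, a collagen-binding integrin of tissue-resident cells, by log2 0.81 [0.61, 1.05], and Jaml, a junctional adhesion molecule, by log2 0.94 [0.77, 1.14]. A UMI of any of the 9 NK list genes was found in 299 of 634 Ifitm-high and 745 of 1625 comparison cells. The part of NK cells in these values was not tested.

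Dapl1, Tcf7, Eomes and Tox were among the 6 lower genes. Dapl1, expressed by naive and central memory CD8 cells, had 4 UMIs in 3 of 634 Ifitm-high cells and 219 UMIs in 45 of 1625 comparison cells (0.824 CPM [0.224, 2.11] in Ifitm-high cells and 19.8 CPM [17.3, 22.6] in the others). Tcf7, the transcription factor of naive and stem-like cells, was at 8.24 CPM [5.88, 11.2] in Ifitm-high cells and 20.5 CPM [17.9, 23.4] in the others (log2 -1.22 [-1.84, -0.83]). Eomes, a T-box factor of central memory and exhausted CD8 cells, was at 8.85 CPM [6.41, 11.9] in Ifitm-high cells and 32.2 CPM [28.9, 35.7] in the others (log2 -1.75 [-2.35, -1.40]), and was found in 39 of 634 (6.15%) against 274 of 1625 (16.9%) cells and in 0 of 85 erythroid-type droplets. Tox, which sets the program of chronically stimulated cells, was at 40.98 CPM [35.5, 47.1] in Ifitm-high cells and 89.1 CPM [83.6, 94.8] in the others (log2 -1.10 [-1.35, -0.90]). Igkc, an immunoglobulin light chain gene of B lineage cells, was also among the 6 (8.85 CPM [6.41, 11.9] in Ifitm-high cells and 33.8 CPM [30.5, 37.4] in the others), and the B cell marker list summed to 161 and 199 CPM.

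Several abundant transcripts were lower without reaching 2-fold. Gzmk, a granzyme that often accompanies Eomes, differed by log2 -0.95 [-1.12, -0.79]. Ccl5, a chemokine of effector and memory cells, stood at 4160.1 CPM [4103, 4218] in Ifitm-high cells and 6652 CPM [6604, 6700.1] in the others (log2 -0.68 [-0.70, -0.65]). Ifi27l2a, an interferon-induced gene, stood at 576 CPM [555, 598] in Ifitm-high cells and 1106 CPM [1086, 1125] in the others (log2 -0.94 [-1.0, -0.88]). Of 19 naive and central memory genes 3 were lower and none higher, with a median of -0.12, while the whole list summed to 4921 CPM in Ifitm-high and 4827 CPM in comparison cells. Of 12 inhibitory receptor and Tox genes 1 was lower, with a median of -0.15.

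**Figure D3:**
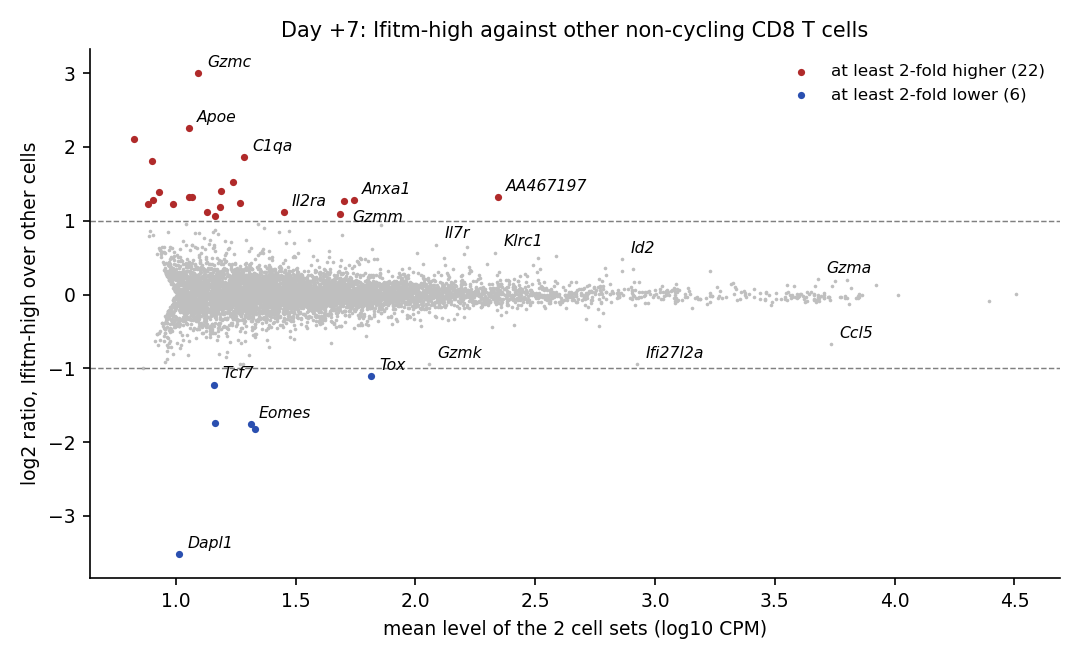
Log2 ratio of CPM + 1 in Ifitm-high over comparison cells on day +7 against mean CPM on a log axis, one point a gene, with the 22 genes at least 2-fold higher and the 6 at least 2-fold lower in colour. The median of the 6490 genes is 0.00025, and Gzmc (2.996) and Dapl1 (-3.51) lie farthest from it.

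High Ifitm counts did not come with higher levels of other interferon-induced genes on day +7. Of 38 interferon response genes measured outside the Ifitm family none was 2-fold higher or lower, 12 lay above 0 and 26 below, and the median was -0.078. Isg15, a ubiquitin-like interferon-induced modifier, was at 24.7 CPM [20.5, 29.5] in Ifitm-high cells and 32.7 CPM [29.5, 36.3] in the others (log2 -0.39 [-0.72, -0.10]), and Irf7, which amplifies type I interferon, differed by log2 0.013 [-0.29, 0.31]. In sum over the whole list, the level was 2678 CPM in Ifitm-high and 2774 CPM in comparison cells. The 22 genes of antigen processing and MHC class I, which interferon also raises, had a median of -0.011 with none called. Ifitm10 was the only other Ifitm gene above the minimum, at log2 -0.31.

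No metabolic gene of the lists was called on day +7. Of 18 glycolysis genes and 70 nuclear genes of oxidative phosphorylation none was called, with medians of 0.07 and 0.0096. Pgd, the 6-phosphogluconate dehydrogenase of the pentose phosphate pathway and the enzyme that the study blocks elsewhere, was at 33.8 CPM [28.8, 39.4] in Ifitm-high cells and 32.9 CPM [29.6, 36.5] in the others (log2 0.036 [-0.24, 0.31]). G6pdx, which feeds the same pathway, differed by log2 0.018 [-0.39, 0.41] and Pgls, the step between them, by log2 -0.02 [-0.13, 0.087]. None of 21 cell cycle genes that the rule had not used was called (median -0.095). The same held for 8 GIMAP genes, all of them slightly below 0 (median -0.069), and for 24 genes of T cell receptor signalling.

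A further group of higher genes consisted of macrophage transcripts. Apoe, Vcam1, Selenop, C1qa, C1qb and C1qc were among the 22 called genes, with log2 ratios from 1.32 to 2.26. Their 508 UMIs in Ifitm-high cells lay to 84.6% (430 UMIs) in 8 cells with at least 10 such UMIs each, 6 of which had no Ifitm1. In comparison cells 7 such cells held 99 of 292 UMIs (33.9%). The list of 11 monocyte and macrophage markers, all detected in both sets, summed to 529 CPM in Ifitm-high and 396 CPM in comparison cells. At least 2 myeloid or erythroid UMIs were held by 20 of 485 Ifitm-high cells with Ifitm1 (4.12%) and by 15 of 149 without (10.1%), at median depths of 6798 and 7542 UMIs. At least 5 Gzma UMIs were held by 74.6% and 80.5% of these cells. Whether the Ifitm2 and Ifitm3 counts of these few droplets came from another cell was not tested.

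AA467197, Anxa1, Gzmm and Il2ra were higher in the bin of most Ifitm UMIs than in that of none, and some already below the limit of the rule. Day +7 non-cycling chemokine-low CD8 cells with 0, 1 to 2, 3 to 4, 5 to 9, 10 to 19 and 20 or more Ifitm UMIs numbered 1156, 351, 118, 168, 172 and 294. In that order AA467197 was at 97.8, 176, 239.5, 250.3, 282 and 370.5 CPM, so that each bin was above the one before, although the intervals of the bins from 3 to 19 Ifitm UMIs overlapped. Anxa1 was at 26.2, 34.6, 77.5, 63.6, 75.1 and 89.3 CPM, and Il2ra at 14.3, 24.8, 25.03, 33.3, 33.7 and 45.1 CPM. Il7r was at 84.4, 119.6, 104, 114, 141 and 176 CPM.

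Gzmm was at 29.4, 25.6, 39.3, 66.7, 66.7 and 77.4 CPM, with the largest step at the limit of the rule. The intervals of the bins on either side of that step, [27.1, 55.2] and [53.3, 82.3], overlapped. Tox went down over the bins, at 91.6, 89.5, 64.4, 53.5, 41.4 and 33.6 CPM, and Eomes was at 37.8, 21.6, 11.9, 10.1, 13.03 and 5.75 CPM. Dapl1 had no UMI in the bins from 3 to 19 Ifitm UMIs. Gzma stayed between 4092 and 5632 CPM over the bins, and Isg15 between 21.5 and 34.02 CPM. Median depth was 6392.5, 6818, 6584.5, 7000, 7029.5 and 6917 UMIs over these bins, and levels are scaled to the summed UMIs.

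**Figure D4:**
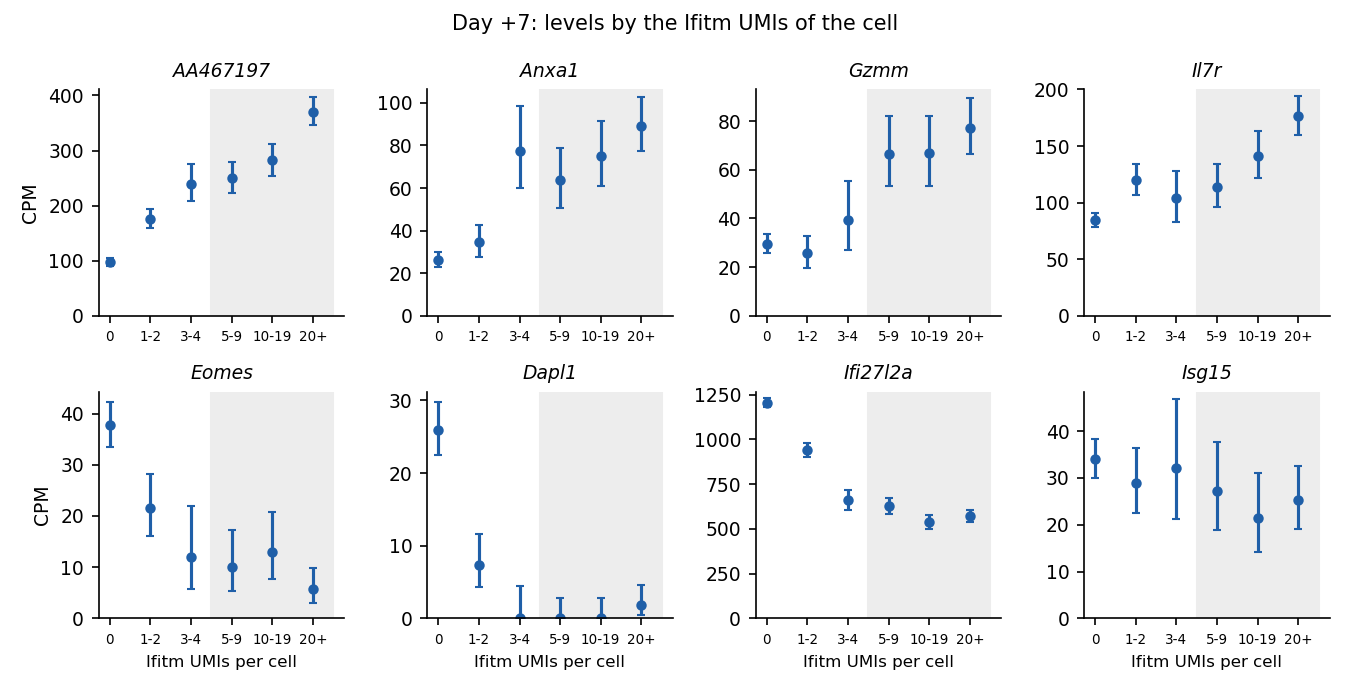
Level in CPM of 8 genes by the number of Ifitm UMIs per cell in day +7 non-cycling chemokine-low CD8 cells, with 95% counting intervals and grey shading over the bins of Ifitm-high cells. AA467197 goes from 97.8 to 370.5 CPM over the bins, and Eomes from 37.8 to 5.75 CPM.

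Most Ifitm-high cells on day +7 also held high counts of Gzma. At least 5 Gzma UMIs were present in 482 of 634 Ifitm-high cells (76.0%) and in 1089 of 1625 comparison cells (67.0%), whereas Tcf7 had a UMI in 26 (4.10%) and 130 (8.0%). In erythroid-type droplets Gzma had at least 1 UMI in 18 of 85 (21.2%) and Tcf7 in 0. Set against only the 1089 Gzma-high comparison cells, 24 of 6477 genes were at least 2-fold higher (0.371%) and 8 lower (0.124%), and 18 of the 22 higher genes were among these 24, including macrophage transcripts. Of the 13 genes that were higher without cells holding myeloid or erythroid UMIs, 9 were among the 24. Id3, an inhibitor of E-proteins that is kept by memory precursors, was higher than in Gzma-high cells (log2 1.69 [1.26, 2.74]), as was Tnfrsf4 (log2 1.40 [1.08, 1.88]). Neither was among the 22 genes higher against all comparison cells. Eomes (log2 -1.84 [-2.46, -1.48]), Gzmk (log2 -1.29 [-1.47, -1.14]) and Zeb2, a factor of terminal effector cells (log2 -1.18 [-1.83, -0.75]), were lower. Only the comparison cells were selected on Gzma here, which fixes part of these differences.

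Against the 101 Tcf7-expressing Gzma-low comparison cells, 311 of 6695 genes were at least 2-fold higher (4.65%) and 176 lower (2.63%) in the Ifitm-high cells. Of 23 cytotoxic genes measured 14 were higher, with a median of 1.12 against 0.08 over all genes. Of 8 NK-type lectin receptors 5 were higher (median 1.41), and of 21 naive and central memory genes 9 were lower. Id3, higher than in the Gzma-high cells, was lower than in the Tcf7-expressing cells, at 12.4 against 200 CPM (log2 -3.91 [-4.47, -3.58]). Selecting the comparison cells on Gzma and Tcf7 fixes part of this difference, since these genes vary together with others of their programs.

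On day +14 the few Ifitm-high cells carried more of several effector transcripts, and 1 droplet among them held neutrophil RNA. Over all 28 cells, 853 of 7858 genes were at least 2-fold higher (10.9%) and 973 lower (12.4%), and the highest were neutrophil genes such as Lcn2, S100a8, S100a9, Ngp, Ltf and Camp. Of 2499 neutrophil marker UMIs, 2494 came from 1 droplet. Without the 3 droplets with myeloid or erythroid UMIs, 25 cells were left against 1809 comparison cells, and 754 of 7602 genes were higher (9.92%) and 1004 lower (13.2%). In 25 cells counting error is large, and the interval of the ratio excluded equality for 258 of the higher and 99 of the lower genes. Of the lower genes 370 had no UMI in the 25 cells. Unless all 28 are named, day +14 values are for these 25 cells.

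Cytotoxic genes were among those higher on day +14. Gzma was at 3285 CPM [2999, 3591] in Ifitm-high cells and 399.8 CPM [388, 412] in the others (log2 3.04 [2.90, 3.17]), and in all 28 cells at least 5 Gzma UMIs were found in 12 (42.9% [24.5, 62.8]) against 140 of 1964 comparison cells (7.13%). Prf1 was at 549.8 CPM [437, 683] in Ifitm-high cells and 187 CPM [178, 195] in the others (log2 1.55 [1.22, 1.88]), and Fasl, the death ligand, differed by log2 1.12 [0.43, 1.76]. Gzmc had 46 UMIs, but in 2 cells only. Of 25 cytotoxic genes measured 8 were higher, none lower and 24 above 0, with a median of 0.77 against 0.0012 over all genes. Among all genes 9.92% were higher and 13.2% lower. Tbx21, the T-box factor of effector cells, differed by log2 1.30 [0.51, 2.04], and Eomes by log2 -1.92 [-4.25, -0.42] on 3 UMIs.

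Ccr2, Ly6c2, Itga1 and Klrc1 were also at least 2-fold higher on day +14, when 9.92% of all genes were higher and 13.2% lower. Ccr2, a receptor for inflammatory chemokines, was at 143 CPM [88.2, 218] in Ifitm-high cells and 24.6 CPM [21.7, 27.8] in the others (log2 2.49 [1.82, 3.18]), and 3 of 7 chemokine receptors were higher, none lower (median 0.51). Ly6c2, a surface protein of effector and memory CD8 cells, was at 1669.7 CPM [1468, 1892] in Ifitm-high cells and 615 CPM [600.4, 631] in the others (log2 1.44 [1.25, 1.62]). Itga1 was at 122 CPM [72.4, 193] in Ifitm-high cells and 22.9 CPM [20.1, 25.97] in the others (log2 2.37 [1.64, 3.11]). Klrc1 was at 319 CPM [234, 424] in Ifitm-high cells and 121 CPM [114, 128] in the others (log2 1.39 [0.95, 1.82]), and the 10 NK-type lectin receptors measured had a median of 0.86, with 2 higher and 1 lower. Fcer1g differed by log2 4.01 [3.64, 4.45], with 30 of its 65 UMIs in 1 cell. In the 25 cells the NK genes used for list sums came to 502 CPM against 113 CPM, with Ncr1, Klra4 and Klra8 at 0 in both sets. Fcer1g, a gene of this list, took 441 CPM of the first sum and 26.5 CPM of the second, so the higher sum rests on that gene. The list of 11 monocyte and macrophage markers, 7 of them at 0 in the 25 cells, summed to 828 CPM against 265 CPM (log2 1.65 [1.37, 1.91]), so leaving out the 3 droplets did not level it. The part of these lists in the day +14 differences was not tested.

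AA467197 and Anxa1 were higher on both days. On day +14 AA467197 was at 353 CPM [264, 463] in Ifitm-high cells and 52.8 CPM [48.5, 57.4] in the others (log2 2.72 [2.30, 3.15]), and Anxa1 at 143 CPM [88.2, 218] in Ifitm-high cells and 10.7 CPM [8.83, 12.9] in the others (log2 3.61 [2.99, 4.41]). Anxa1 had a UMI in 13 of all 28 Ifitm-high cells (46.4%) and in 4.58% of comparison cells, with 0 of 14 erythroid-type droplets (median 2446.5 UMIs). Of the 13 genes higher on day +7 without myeloid or erythroid UMIs 9 were also among the 754 higher on day +14, when 9.92% of all genes were. Of the 7 lower 3 were also among the 1004 lower, when 13.2% of all genes were. Il2ra and Il7r were also higher, on 5 and 10 UMIs (log2 2.64 [1.20, 4.21] and 1.66 [0.63, 2.61]).

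Several glycolysis and cell cycle genes were lower in the Ifitm-high cells on day +14, when 13.2% of all genes were. Of 20 glycolysis genes 6 were lower, none higher and 18 below 0, with a median of -0.72, or -0.62 with the 1 gene at 0 set to its limit of 3 counts. Tpi1, the triose phosphate isomerase, was at 61.1 CPM [27.9, 116] in Ifitm-high cells and 314 CPM [303, 325] in the others (log2 -2.34 [-3.49, -1.44]). Of 26 cell cycle genes outside the rule 8 were lower, 3 of them with no UMI (median -0.47, or -0.16 at that limit). The 70 genes of oxidative phosphorylation had none called and a median of -0.041, and Pgd had 3 UMIs in the 25 cells (log2 -0.95 [-3.27, 0.57]).

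Interferon response genes went both ways on day +14. Of 40 interferon response genes 5 were higher and 3 lower, against 9.92% and 13.2% of all genes (median 0.046). Ifi27l2a, the interferon gene that was lower on day +7, was at 115 CPM [67.2, 185] in Ifitm-high cells and 781 CPM [764, 798] in the others (log2 -2.75 [-3.54, -2.08]). Cd7, a surface protein of T and NK cells, was at 169.7 CPM [109.8, 250.5] in Ifitm-high cells and 899 CPM [880.5, 917] in the others (log2 -2.40 [-3.03, -1.84]). Of 15 inhibitory receptor and Tox genes 3 were higher, with Havcr2, which encodes TIM-3, at log2 1.10 [0.38, 1.77], and 3 had no UMI in the 25 cells. The median of that list was -0.33, or 0.25 with those 3 genes at their limit, so its sign is not settled. Of 17 naive and central memory genes 1 was higher and 1 lower (median 0.16).

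**Figure D5:**
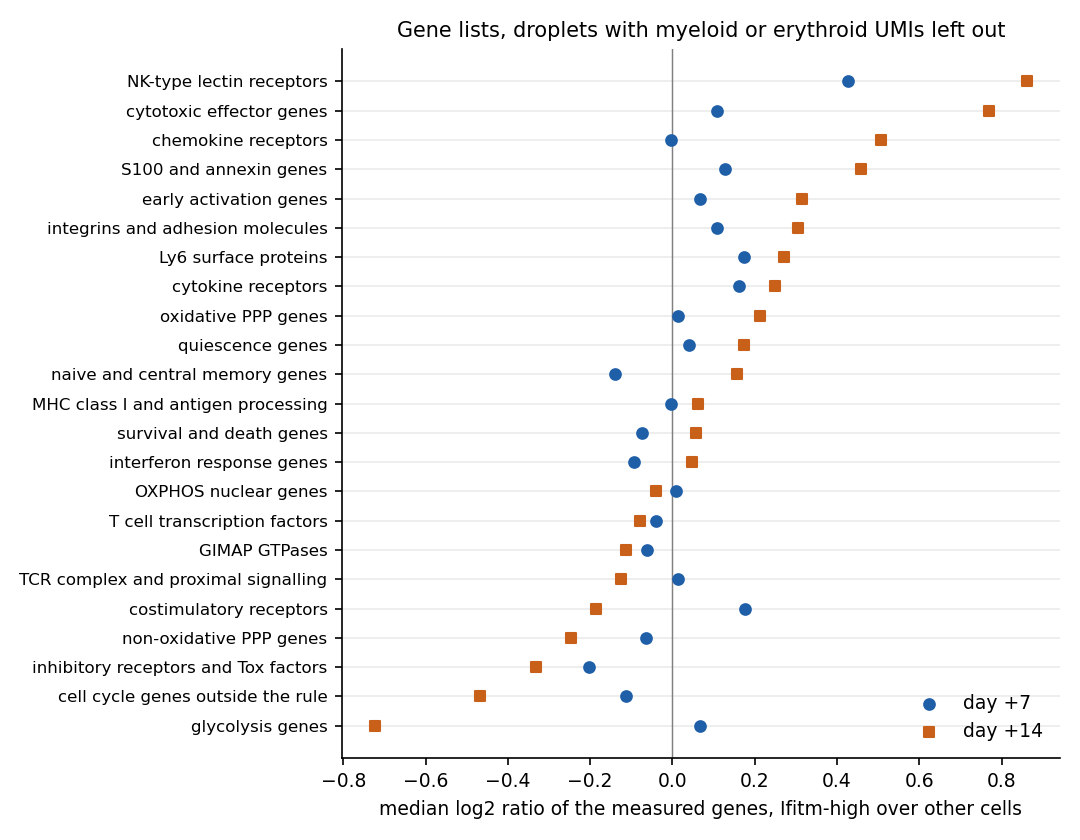
Median log2 ratio of CPM + 1, Ifitm-high over comparison cells, for each gene list on days +7 and +14, without cells holding myeloid or erythroid UMIs. On day +7 the NK-type lectin list lies highest among the named lists (0.43), and on day +14 the NK-type lectin (0.86) and cytotoxic (0.77) lists lie highest and glycolysis (-0.72) lowest.

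Several effector transcripts that were lower on day +14 in the comparison cells were lower by less, or not lower, in the Ifitm-high cells. Over all Ifitm-high cells 1440 of 7598 genes were at least 2-fold higher on day +14 (19%) and 626 lower (8.24%), and without cells holding myeloid or erythroid UMIs 1319 of 7290 were higher (18.1%) and 680 lower (9.33%). In the comparison cells 356 of 7084 genes were higher (5.03%) and 102 lower (1.44%). The median over all genes was 0.22 in both, and the day +14 Ifitm-high sum is far shallower, so counts of called genes cannot be set against each other. The following differences are day +14 over day +7, without cells holding myeloid or erythroid UMIs for the Ifitm-high set.

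Gzma differed by log2 -0.65 [-0.78, -0.52] in Ifitm-high cells and by -3.52 [-3.56, -3.47] in comparison cells. For AA467197 the values were 0.14 [-0.29, 0.53] and -1.26 [-1.42, -1.14], for Ccr2 -0.071 [-0.77, 0.55] and -2.37 [-2.61, -2.23], and for Ly6c2 0.95 [0.76, 1.14] and -0.35 [-0.40, -0.30]. In each of these the interval of the Ifitm-high cells lay above that of the comparison cells. Prf1 was higher on day +14 in Ifitm-high cells (log2 1.68 [1.33, 2.01]) and near level in comparison cells (0.04 [-0.048, 0.13]). Gzmm was lower on day +14 in Ifitm-high cells (log2 -2.41 [-5.54, -0.63]) and in comparison cells (-3.29 [-4.47, -3.21]). The difference between the sets was not tested, for want of replicate libraries.

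Tox and Lag3 were at least 2-fold higher on day +14 in both sets. Tox differed by log2 1.98 [1.32, 2.62] in Ifitm-high and 1.69 [1.59, 1.80] in comparison cells, and Lag3, an inhibitory receptor for MHC class II, by 1.70 [1.22, 2.17] and 1.12 [1.02, 1.22]. Over all genes 18.1% were higher and 9.33% lower in Ifitm-high cells, and 5.03% and 1.44% in comparison cells, so each count below is to be read beside its own shares. Of 14 inhibitory receptor and Tox genes 8 were higher and 2 lower in Ifitm-high cells (median 1.07). In comparison cells 9 were higher and none lower (median 1.20). Of 20 glycolysis genes in comparison cells 9 were higher and none lower (median 0.85). In Ifitm-high cells 3 of 19 were higher and 2 lower (median 0.26), near the shares over all genes. For cytotoxic genes the Ifitm-high cells had 7 of 25 higher and 1 lower (median 0.49), and the comparison cells 2 of 24 higher and 4 lower (median 0.029). Interferon response genes had medians of 0.33 and 0.15.

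Genes beside the Ifitm cluster were looked at because the 3 genes are neighbours on chromosome 7. Ifitm2 is at chr7:140954837-140955987 (minus strand), Ifitm1 at chr7:140967221-140969825 (plus) and Ifitm3 at chr7:141009586-141010770 (minus) in the GRCm38 gene annotation. Within 250 kb on either side 19 other genes are listed, 9 of which were measured on day +7, with 8 above 0 and a median of 0.14. Pkp3, which encodes the desmosomal protein plakophilin 3 and starts 67.4 kb beyond the cluster, was at 190.3 CPM in Ifitm-high and 129.6 CPM in comparison cells (log2 0.55 [0.43, 0.67]). Over the bins of Ifitm UMIs it was at 124, 139, 150.2, 199, 189 and 186 CPM, and on day +14 it differed by log2 1.22. Psmd13 and Rnh1 were the other 2 whose interval lay above 0, each at log2 0.14. The window was chosen after the value of Pkp3 was seen.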

How the data were processed

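Single-cell RNA-seq of sorted donor splenic T cells gave 2 libraries, day +7 and day +14, 1 per day, from cells pooled over mice. The authors deposited matrices of raw UMI counts per gene and cell barcode, with no normalization, and the submitters' processing notes name Cell Ranger 6.1.2 and mm10. The annotation release, the handling of reads shared by paralogs and of strand are not given in the sources used here. The members and gene lists were chosen with earlier results of these data known.

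Counts were read as deposited, cells were filtered and chosen by the rule given above, and UMIs were summed over each set of cells within a library and divided by the sum (CPM). Differences are log2 ratios of CPM + 1. A gene counted as higher or lower from a 2-fold difference with at least 10 CPM in the higher set. Intervals of ratios are of the ratio without the added CPM. Intervals are exact (Poisson for CPM, Clopper-Pearson for shares, conditional binomial for ratios, 95%), and cover counting error only. With 1 library a day no p-value was computed. Single genes named for a comparison were the 10 highest and 10 lowest at 50 CPM or more with at least 20 UMIs, leaving out ribosomal, mitochondrial, receptor segment and unnamed genes, with the 4 genes of most UMIs and any called gene from each list. Other genes named were chosen after their values were seen. A few genes that the rule names are not reported here.

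Shares were computed on all UMIs and after thinning to 4000 UMIs per cell. Scrublet's automatic threshold marked 0 cells in each library, so it had not worked, no cell was removed as a doublet, and an alternative left out the top-scoring 433 (12 of them Ifitm-high) and 518 (0 Ifitm-high) barcodes. The steps were tested on simulated counts. Promoters came from RefSeq, and gene positions from the GRCm38 annotation supplied. Python 3.11.15, numpy 2.4.6, scipy 1.17.1, pandas 2.3.3, scanpy 1.11.5 and matplotlib 3.10.9 were used. Alternatives covered the Ifitm limit, mitochondrial limit, depth window, doublets, comparison set, scaling, the added CPM and the gene minimum. Samples were grouped by title. Depth was 87124828 and 84233811 UMIs.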

Additional observations from a re-analysis of the deposited data

How the results depend on the processing

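The share of Ifitm-high cells among CD8 T cells (11.3% on day +7, 0.485% on day +14) was 12.2% and 0.710% with a limit of 5 Ifitm UMIs per 10000, and on day +7 13.4% with a limit of 3 UMIs and 8.28% with a limit of 10. In every one of these the day +7 share was the higher. The count of genes at least 2-fold higher on day +7 (22) was 14 with the limit of 10, 13 without cells holding myeloid or erythroid UMIs, 6 with 10 CPM added, 88 with no CPM minimum and 4 with a minimum of 50 CPM. That of lower genes (6) was 47 and 1 with these last settings, and 11 against comparison cells without Ifitm UMIs. On day +14 the 853 higher genes became 551 with a limit of 3 UMIs, 303 with 10 CPM added, 1350 with no minimum and 135 with 50 CPM, and the 973 lower ones 513, 3042 and 120 under the last 3. Between the days the 1440 higher genes became 597 with 10 CPM added and 247 with 50 CPM, and the 626 lower ones 329 and 81, or 2507 with no minimum. An alternative added after seeing the data, counting genes whose interval excluded equality, gave 356 higher and 138 lower on day +14 and 647 and 93 between the days. A CPM minimum, an added CPM or an interval removes genes of few counts by construction. The cause of the other changes was not tested.

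Of 840 values of named genes under alternatives, 686 moved by less than their counting interval, 133 by more, and 21 changed direction, all 21 of them for myeloid genes. A change of direction was counted only for genes at least 2-fold different in the main setting. Without cells holding myeloid or erythroid UMIs the day +14 values were -0.97 for S100a9, -2.60 for Ngp, -0.82 for Wfdc21, -2.60 for Camp, -0.13 for Retnlg and -1.99 for Lyz2, and those between the days -0.29 for Camp, -1.07 for Ngp, -0.53 for Wfdc21, -0.73 for Lyz2 and -0.91 for Chil3. Without the 1 cell of most such UMIs, an alternative added after seeing the data, the day +14 values were -0.69 for S100a8, -1.78 for S100a9, -2.68 for Ngp, -0.97 for Wfdc21, -2.91 for Camp and -0.12 for Retnlg, and those between the days -0.27 for Camp, -1.02 for Ngp, -0.69 for S100a9 and -0.87 for Wfdc21. S100a8, S100a9 and Lyz2 are among the genes by which cells were left out in both settings, so their lower values follow in part from that choice. Scaling by the median ratio shifted all genes by 0.0058, 0.034 and 0.019 on the log2 scale in the 3 comparisons. No paired analysis was possible because each day had 1 library, and no replicate could be left out.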

Other observations

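T cell receptor beta variable (Trbv) transcripts were detected in 157 of 634 Ifitm-high cells on day +7, spread over 19 genes, with Trbv19 the most frequent (17 cells, 10.8%). In the comparison cells of that day Trbv19 was found in 41 of 394 cells with a Trbv transcript (10.4%). On day +14 only 6 Ifitm-high cells had a Trbv transcript, and 5 of these carried Trbv2 (83.3% [35.9, 99.6]), against 70 of 494 comparison cells (14.2% [11.2, 17.6]). On day +7 Trbv2 was found in 13 of 157 Ifitm-high and 25 of 394 comparison cells (8.28% and 6.35%). Trbv2 was singled out after its values were seen, the cells came from pooled mice and 1 library, and clonotypes were not analysed here.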
